A study of Mus musculus with 6 samples.

Results

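The 37 imprinted genes described here were chosen by symbol from the count tables of 6 mouse pancreata, which hold 54735 gene symbols in all. All 37 were found and all 37 passed the filter on low counts. They fall into 8 imprinted clusters with at least 2 members and 8 loci with 1 member, and 31 code for protein while 6 are noncoding RNAs. Whole pancreas was taken from mouse embryos at e16.5 on a mixed C57Bl6 and 129SV background, and total RNA was sequenced. The 3 control pancreata carried the Neurog3:cre driver alone. The 3 RARdn pancreata carried the same driver together with the floxed allele named RARdnfl/fl. The labels do not spell out RARdn, letters commonly used for a retinoic acid receptor in dominant-negative form. The Neurog3 promoter is active in endocrine progenitors, a minority of the cells of the organ, so each value below mixes cells that expressed the driver with the many that did not. In such whole-tissue samples, fewer cells of a type and less RNA per cell cannot be told apart.

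Imprinted genes are read mainly from the maternal or the paternal copy, according to DNA methylation marks that are set in the germline at imprinting control regions. Many act on fetal growth, with paternally expressed genes such as Igf2 promoting it and maternally expressed genes such as Igf2r, Grb10 and Cdkn1c restraining it. Several clusters hold a long noncoding RNA, and Kcnq1ot1 and Airn silence their neighbours on the paternal copy. The counts were not split by allele, so they measure the total transcript of each gene and not its imprint.

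Counts in genes ranged from 38572573 to 44735721 in the controls and from 35256531 to 52015498 in the RARdn libraries. Several library measures moved with genotype. Genes for ribosomal RNA took 0.900% to 0.946% of counts in controls and 0.0718% to 0.0819% in RARdn libraries, and reads outside genes took 7.60% to 8.99% and 2.90% to 5.30% of all reads. The acinar list summed to 170480 to 185287 CPM (counts scaled to a common library size, with TMM correction for composition) in controls and to 57374, 209671 and 294854 CPM in RARdn 1, 2 and 3. Xist, read from the inactive X, reached 1158 and 1118 CPM in control 1 and control 3, 0.312 CPM in control 2 and no more than 0.230 CPM in the RARdn libraries, so sex was not balanced. In the edgeR quasi-likelihood test of RARdn against control, 262 of 19070 genes were called higher and 505 lower at an adjusted p under 0.05, or 1.37% and 2.65% of the genes tested.

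Of the 37 imprinted genes, 3 rose in RARdn pancreas (Ndn, Igf2 and Asb4) and 1 fell (Kcnq1ot1), by edgeR with Benjamini-Hochberg adjustment over all genes. The share called in either direction over all genes was 4.02%. The median log2 fold change of the 37 was 0.10, against 0.00051 over all genes tested, with 23 above 0 and 14 below. At an unadjusted p under 0.05 stood 12 of the 37 (32.4%) and 22.2% of all genes tested. DESeq2 called 8 of the 37 higher and 2 lower, where it called 4.27% of all genes higher and 5.31% lower, 9.58% in all. In 16 genes the groups did not overlap, 11 with all RARdn libraries higher and 5 with all lower. Over all genes tested the groups did not overlap in 27.6%, with RARdn higher in 13.9% and lower in 13.7%.

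**Figure D1:**
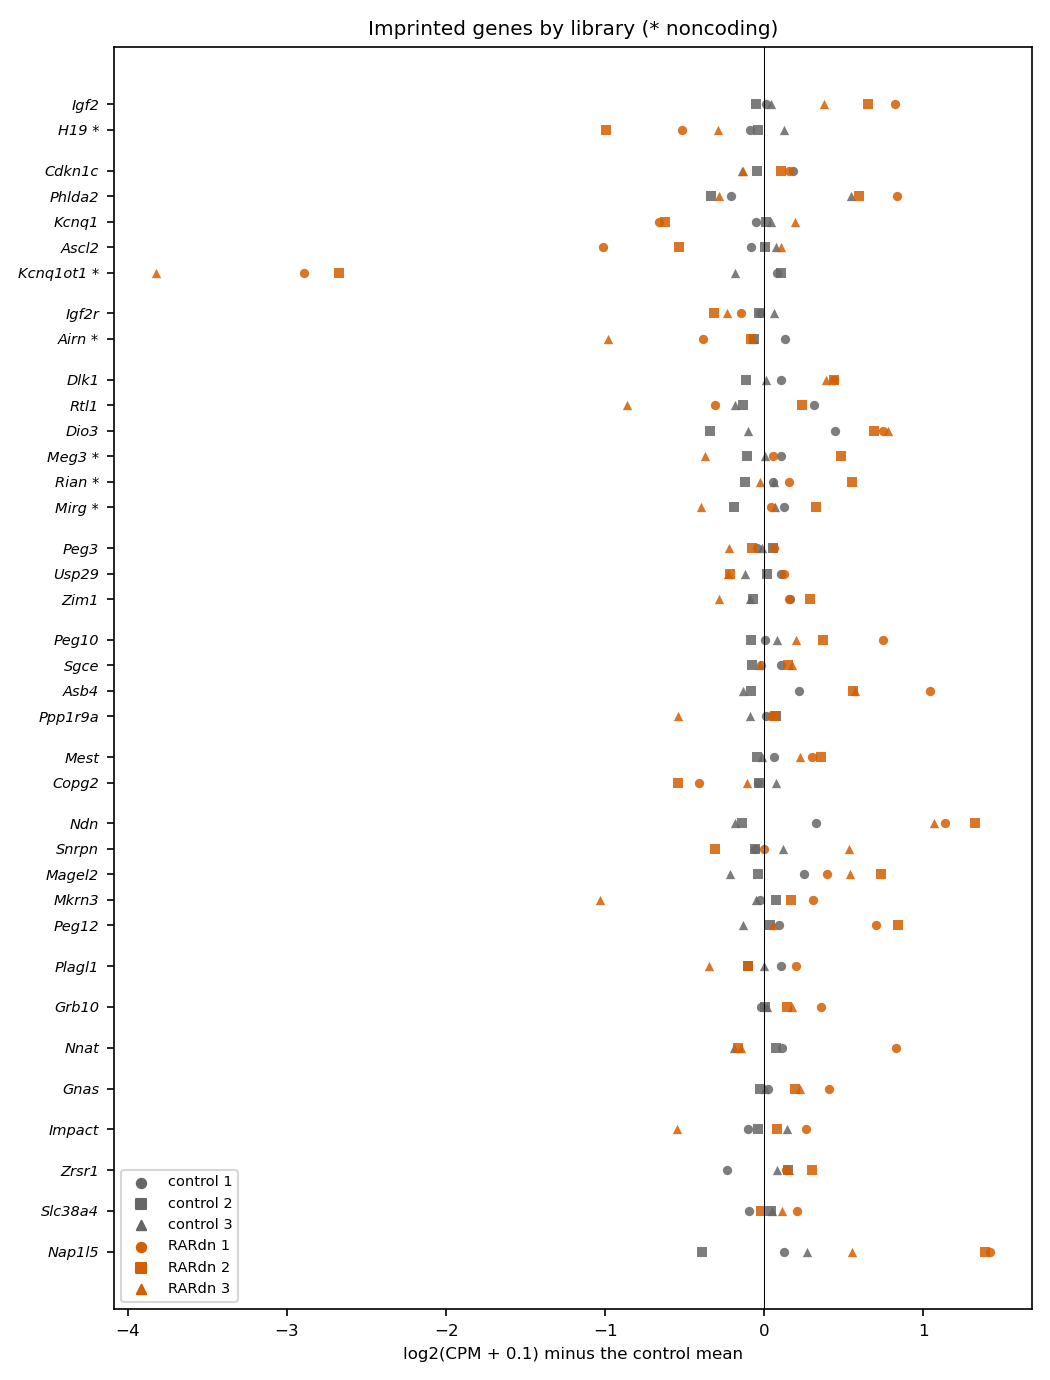
Each row is an imprinted gene and each point a library; the horizontal axis is log2(CPM + 0.1) minus the mean of the 3 controls, rows are grouped by cluster, and asterisks mark noncoding RNAs. Kcnq1ot1 lies far to the left in all 3 RARdn libraries (log2 fold change -3.06), Ndn lies to the right (1.16), and most other genes stay within 1 log2 unit of the control mean.

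Levels per length spanned a wide range in control pancreas. H19, a noncoding RNA of the fetus, stood at 3310 CPM per kb of exon and was far above the rest. Dlk1, which encodes a transmembrane protein of the Notch ligand family, was at 182 CPM per kb, Cdkn1c, a cell cycle inhibitor, at 169.7, and Mest, a hydrolase-like protein, at 163. Nnat, encoding neuronatin, was at 118, Peg3, a zinc finger protein, at 85.7, Meg3 at 84.5, Grb10 at 77.9 and Plagl1, a zinc finger transcription factor, at 73.8. At the low end were Phlda2 (0.914), Mkrn3 (0.595) and Nap1l5 (0.566). The 37 genes together took 1.66% to 1.73% of all gene counts in controls and 1.96%, 1.42% and 1.31% in RARdn 1, 2 and 3. As summed TMM-scaled CPM they stood at 16506 to 17757 in controls and at 16086, 14539.5 and 15253 in RARdn 1, 2 and 3, so RARdn 1 lay above the controls as a share and below them after scaling, while the other RARdn libraries were below on either scale.

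Counting limits touch some of these levels. Igf2 shares 62.8% of its exon bases with Gm49394, a gene model on the same strand, and Gm49394 had 0 counts in all 6 libraries. Only 35.45% of the Igf2 exon bases are shared with no gene, and its level was 59.0 CPM per kb of that part in controls. Whether reads in the shared exons were left out of the Igf2 counts was not tested. Snrpn, which encodes a splicing protein, shares 34.1% of its bases, Cdkn1c 30.65%, Mest 23.1%, Gnas 21.96%, Copg2 17.8% and Usp29 14.8%, while 20 of the 37 share none. The strand setting of the counting is not given in the sources used here, so reads of antisense partners cannot be told apart.

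The largest change in the set was in Kcnq1ot1, the noncoding RNA that starts within Kcnq1 and runs antisense to it (chromosome 7, 143203458 to 143296549, minus strand, GRCm38). Kcnq1ot1 was at 185, 188 and 154 CPM in control 1, 2 and 3, against 23.5, 27.4 and 12.2 CPM in RARdn 1, 2 and 3. The groups did not overlap, and RARdn 3 was the lowest library. It fell by 3.06 on the log2 scale (SE 0.27, edgeR adjusted p = 0.00236), which is 8.32-fold lower, and it was called under all 18 alternatives tried (adjusted p from 3.00e-33 to 0.0130). GENCODE annotates Kcnq1ot1 as 1 exon of 93092 bases that fills its whole span. Per kb of exon its level was 1.89 CPM in controls and 0.226 CPM in RARdn libraries. That span lies within the span of Kcnq1. As the strand setting is not given, reads from Kcnq1 introns in this count cannot be told apart, and their part was not tested. Its RefSeq promoter, chr7:143296498-143296797 (GRCm38.p6, minus strand), is shown because this start lies in the maternally methylated control region of the cluster. Capitals mark CpG dinucleotides, the sites of DNA methylation, of which it holds 9.
Kcnq1ot1 promoter: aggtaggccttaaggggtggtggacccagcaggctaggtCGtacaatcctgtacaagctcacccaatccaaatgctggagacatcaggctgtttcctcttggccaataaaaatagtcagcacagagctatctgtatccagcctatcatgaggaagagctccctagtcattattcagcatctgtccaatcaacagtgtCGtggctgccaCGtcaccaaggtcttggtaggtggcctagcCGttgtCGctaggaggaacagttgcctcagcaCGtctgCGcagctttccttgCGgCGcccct

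The neighbours that Kcnq1ot1 is known to silence on the paternal copy did not pass the test. Cdkn1c was at 391, 334 and 313 CPM in the 3 controls and 383, 370.2 and 314 CPM in RARdn libraries, with full overlap (log2 fold change 0.04, SE 0.15, edgeR adjusted p = 0.903). Kcnq1, a potassium channel gene, was at 52.3, 54.7 and 55.7 CPM and at 34.2, 35.2 and 61.9 CPM. RARdn 1 and 2 were below every control and RARdn 3 above (log2 -0.31, SE 0.21, adjusted p = 0.419), and without RARdn 3 Kcnq1 was called lower (log2 -0.64, adjusted p = 0.0108; range over alternatives 0.00389 to 0.774). Ascl2, a transcription factor of the placenta, and Phlda2, a growth restrainer of the placenta, were low throughout, at 2.11 ± 0.120 and 1.02 ± 0.398 CPM (SD, n = 3) in controls and 1.56 ± 0.651 and 1.39 ± 0.536 CPM in RARdn libraries.

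Other nuclear RNAs and library measures moved with Kcnq1ot1. Malat1, an abundant nuclear noncoding RNA, was at 2389.6, 2805 and 1781 CPM in the 3 controls and 213, 323 and 112 CPM in RARdn libraries (log2 -3.43, edgeR adjusted p = 0.00631). Rn7sk, the noncoding RNA that binds the elongation factor P-TEFb, was at 27.5, 24.6 and 24.8 CPM and at 1.04, 0.710 and 0.132 CPM (log2 -5.23, adjusted p = 0.00138). Both were lowest in RARdn 3, the library that was also lowest for Kcnq1ot1 and for reads outside genes. Neat1, Tug1, Miat, Firre and Terc, the other tested genes of the nuclear noncoding list, did not pass, with log2 fold changes of 0.14, 0.13, 0.22, 0.06 and -0.40, so 2 of 7 fell and none rose. Rmrp was at 0 in every library. Of 1643 long noncoding genes tested 93 were called lower and 3 higher, and 49 (2.98%) had a log2 fold change at or below that of Kcnq1ot1. The part of these library measures in the Kcnq1ot1 result was not tested.

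**Figure D2:**
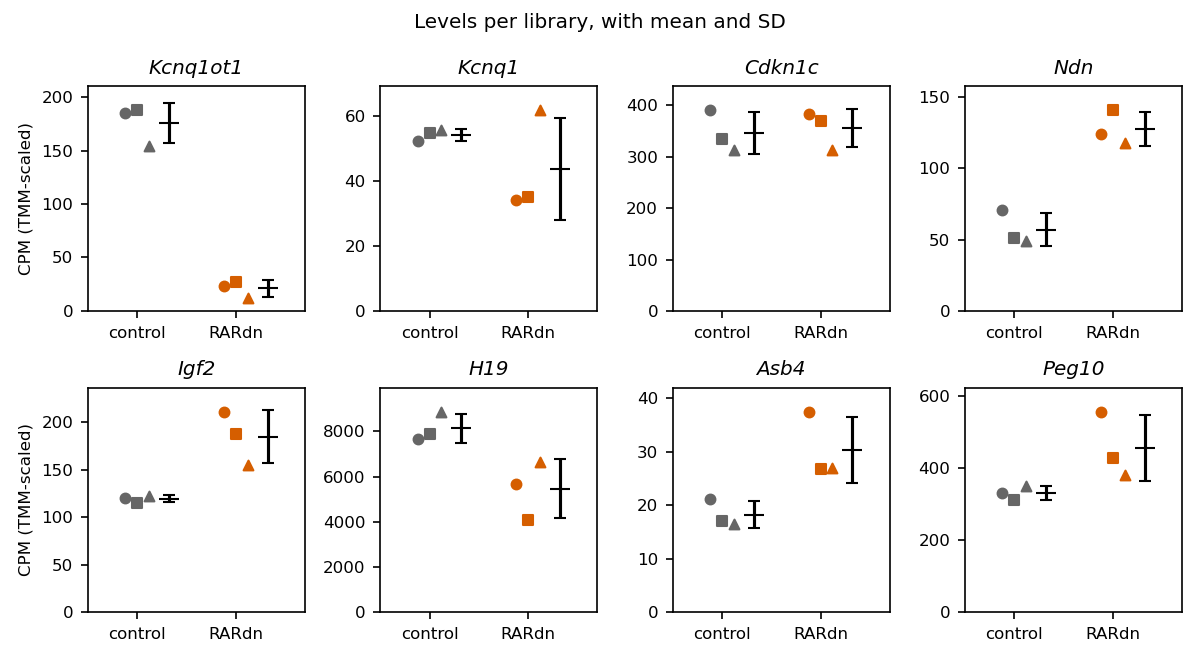
Points are TMM-scaled CPM of each library (circle, square and triangle for replicate 1, 2 and 3), and black bars are the mean ± SD of the group. Kcnq1ot1 and Ndn separate widely between groups, Igf2 and Asb4 less so, while Cdkn1c overlaps fully and Kcnq1 is split among the RARdn libraries.

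In the Igf2-H19 cluster the coding and the noncoding gene lay on opposite sides of the controls. Igf2, the fetal growth factor (chromosome 7, 142650766 to 142666816, minus strand), was at 121, 115 and 123 CPM in the 3 controls and 211, 188 and 155 CPM in RARdn libraries. Every RARdn library was above every control. It rose by log2 0.63 (SE 0.13, edgeR adjusted p = 0.0400). The call was lost when control 1, 2 or 3 or RARdn 2 was left out (adjusted p = 0.101, 0.191, 0.131 and 0.0989), and it held without RARdn 1 or 3. It was also lost with library totals only (0.125), with at least 1 CPM in 3 libraries (0.0629) and with a term for Xist. As Xist was high only in control 1 and control 3, that term left control 2 as the only control compared with RARdn. The log2 fold change of Igf2 was then 0.68. Of 18 alternatives 9 called Igf2 (adjusted p over all from 0.000606 to 0.857). Igf2 is also strongly expressed in fetal liver, and the liver list summed to 381 to 410.5 CPM in the 3 controls and 1529, 601 and 449 CPM in RARdn 1, 2 and 3, the same order as Igf2. Of its 8 genes 2 were called higher, Alb and Ahsg. The part of the liver list in the Igf2 result was not tested.

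H19 (chromosome 7, 142575529 to 142578143, minus strand), the maternally expressed partner that shares enhancers with Igf2, was at 7651, 7904 and 8872 CPM in the 3 controls and 5689, 4073 and 6640 CPM in RARdn libraries. All RARdn libraries were lower, although the difference did not pass (log2 -0.57, SE 0.27, edgeR adjusted p = 0.246). H19 was called lower by DESeq2 (adjusted p = 0.0359) and by edgeR without RARdn 3 (0.0499; range over 18 alternatives 0.00426 to 0.726). The Igf2 promoter with the most CpG dinucleotides of the 4 that RefSeq lists is chr7:142658755-142659054 (GRCm38.p6, minus strand). It holds 24, the most of the 4 called genes shown, again in capitals.
Igf2 promoter: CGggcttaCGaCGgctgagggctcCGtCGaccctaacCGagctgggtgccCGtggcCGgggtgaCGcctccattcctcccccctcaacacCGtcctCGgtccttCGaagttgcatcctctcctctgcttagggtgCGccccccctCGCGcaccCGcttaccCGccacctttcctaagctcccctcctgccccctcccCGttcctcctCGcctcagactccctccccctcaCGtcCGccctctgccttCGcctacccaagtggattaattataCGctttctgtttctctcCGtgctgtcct

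The Snrpn cluster, the mouse counterpart of the Prader-Willi region, held the increase with the lowest p. Ndn, encoding necdin, a MAGE family protein of neurons and mesenchymal cells that restrains growth (chromosome 7, 62346569 to 62350262), was at 70.4, 51.0 and 49.3 CPM in the 3 controls and 124, 141 and 118 CPM in RARdn libraries. The lowest RARdn library was well above the highest control. It rose by log2 1.16 (SE 0.15, edgeR adjusted p = 0.0117), or 2.24-fold, and 412 protein-coding genes (2.74%) had a fold change at least as high. The call was lost without control 2 (adjusted p = 0.0563) and with a term for Xist. With that term control 2 was the only control compared with RARdn, and the log2 fold change was 1.32. Of 18 alternatives 16 called Ndn, with the lowest adjusted p at 3.36e-09 (DESeq2). Its RefSeq promoter, chr7:62348027-62348326 (GRCm38.p6, plus strand), holds 11 CpG dinucleotides.
Ndn promoter: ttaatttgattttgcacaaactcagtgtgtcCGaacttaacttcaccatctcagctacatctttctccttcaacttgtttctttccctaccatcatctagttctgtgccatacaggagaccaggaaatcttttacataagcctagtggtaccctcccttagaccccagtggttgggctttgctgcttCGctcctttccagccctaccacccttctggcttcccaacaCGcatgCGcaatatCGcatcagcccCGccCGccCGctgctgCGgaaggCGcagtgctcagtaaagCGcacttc

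The other paternally expressed genes of that cluster did not pass. Magel2, another MAGE gene, was at 10.6, 8.64 and 7.64 CPM in the 3 controls and 11.7, 14.9 and 12.9 CPM in RARdn libraries, without overlap (log2 0.56, SE 0.17, edgeR adjusted p = 0.0979). Peg12 was at 3.85 ± 0.313 and 5.74 ± 1.56 CPM (log2 fold change 0.59, adjusted p = 0.183), and Mkrn3, a ubiquitin ligase gene linked to the timing of puberty, at 1.52 ± 0.0769 and 1.43 ± 0.650 CPM (log2 -0.06, adjusted p = 0.944). Snrpn was at 6.94, 6.95 and 7.87 CPM and at 7.23, 5.82 and 10.5 CPM, with no separation. RARdn 2 was the lowest library for Snrpn and RARdn 3 the highest.

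In the Peg10-Sgce cluster Asb4 rose. Asb4, maternally expressed and encoding a substrate adaptor of a ubiquitin ligase (chromosome 6, 5383386 to 5433022), was at 21.1, 17.1 and 16.51 CPM in the 3 controls and 37.5, 26.7 and 27.0 CPM in RARdn libraries. The groups did not overlap and RARdn 1 was the highest (log2 0.74, SE 0.16, edgeR adjusted p = 0.0456). The call was lost when any library but RARdn 3 was left out (in order, adjusted p = 0.0600, 0.180, 0.158, 0.0530 and 0.0781). It was also lost with library totals only (0.127), with at least 1 CPM in 3 libraries (0.0716) and with a term for Xist. That term left control 2 as the only control compared with RARdn, and the log2 fold change was then 0.83. Of 18 alternatives 9 called Asb4 (adjusted p over all from 0.00259 to 0.467). Of the 2 promoters that RefSeq lists for Asb4, the one with more CpG dinucleotides, chr6:5390160-5390459 (GRCm38.p6, plus strand), holds 8.
Asb4 promoter: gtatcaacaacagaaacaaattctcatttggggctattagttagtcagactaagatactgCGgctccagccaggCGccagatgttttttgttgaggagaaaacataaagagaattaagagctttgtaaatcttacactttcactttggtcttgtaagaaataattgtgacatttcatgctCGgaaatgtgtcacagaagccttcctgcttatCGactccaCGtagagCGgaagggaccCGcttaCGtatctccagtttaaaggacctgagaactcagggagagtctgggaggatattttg

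Peg10, a gene derived from a retrotransposon and needed for the placenta, was at 333, 313 and 350.4 CPM in the 3 controls and 558, 429 and 381 CPM in RARdn libraries. All RARdn libraries were higher, and RARdn 3 was nearest to the controls (log2 0.46, SE 0.17, edgeR adjusted p = 0.158). Sgce, encoding epsilon-sarcoglycan, which shares its promoter region with Peg10, was at 28.0 ± 1.91 and 30.1 ± 2.21 CPM (log2 0.10, adjusted p = 0.617). Ppp1r9a, encoding neurabin, was at 62.9, 65.8 and 58.8 CPM and at 64.3, 65.5 and 42.9 CPM, with only RARdn 3 outside the range of the controls (log2 -0.12, adjusted p = 0.712).

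None of the 6 genes of the Dlk1-Dio3 cluster passed the edgeR test, where 2 had an unadjusted p under 0.05, Dlk1 and Dio3, and both were called by DESeq2. Dlk1 was at 1107, 949.7 and 1039.8 CPM in the 3 controls and 1393, 1395 and 1347 CPM in RARdn libraries, close together and above every control (log2 0.42, SE 0.16, edgeR adjusted p = 0.171). Dio3, the deiodinase that inactivates thyroid hormone, was at 7.86, 4.50 and 5.32 CPM and at 9.68, 9.31 and 9.91 CPM (log2 fold change 0.71, SE 0.21, adjusted p = 0.0978). Both coding genes at the ends of the cluster were thus higher without overlap, as were 15.9% of all protein-coding genes tested. The maternally expressed noncoding RNAs between them showed no such separation, and neither did the paternally expressed coding gene Rtl1.

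Meg3, the first noncoding RNA of that cluster, was at 1641, 1414 and 1529 CPM in the 3 controls and 1585, 2132 and 1177 CPM in RARdn libraries (log2 0.09, SE 0.24, edgeR adjusted p = 0.852). Rian, a host of small nucleolar RNAs, was at 713, 629 and 715 CPM and at 762, 1002 and 672 CPM (log2 0.24, adjusted p = 0.479). Mirg, a host of microRNAs, was at 54.3, 43.7 and 52.1 CPM and at 51.3, 62.5 and 37.8 CPM (log2 0.01, adjusted p = 0.970). RARdn 2 was the highest library for all 3, and RARdn 3 the lowest for Meg3 and Mirg. Rtl1, a retrotransposon-derived gene read from the paternal copy, was at 18.2 ± 3.66 and 15.2 ± 5.74 CPM (log2 -0.26, adjusted p = 0.612).

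In the Igf2r-Airn cluster both genes lay below the controls without passing. Igf2r, the receptor that takes up and degrades IGF2, was at 407, 405 and 432 CPM in the 3 controls and 375, 332 and 352 CPM in RARdn libraries (log2 -0.23, SE 0.13, edgeR adjusted p = 0.323). Airn, the noncoding RNA that silences it on the paternal copy, was at 25.2, 21.99 and 21.8 CPM and at 17.5, 21.7 and 11.6 CPM (log2 fold change -0.44, SE 0.21, adjusted p = 0.252). The groups did not overlap in either gene, though RARdn 2 came within a narrow margin of the controls for Airn. Annotated exons cover 3.03% of the Airn span; which bases of this largely unspliced transcript were counted is not given in the sources used here.

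In the Mest-Copg2 cluster the 2 genes, which overlap at their 3′ ends on opposite strands, lay on opposite sides of the controls. Mest was at 671, 623 and 638 CPM in the 3 controls and 792, 825 and 753 CPM in RARdn libraries (log2 0.29, SE 0.14, edgeR adjusted p = 0.261). Copg2, a subunit of the coatomer coat of transport vesicles, was at 54.4, 54.6 and 58.8 CPM and at 42.1, 38.4 and 51.9 CPM (log2 -0.34, SE 0.12, adjusted p = 0.149). Neither overlapped between groups and neither passed. In the Peg3 cluster, Peg3 was at 1108, 1188 and 1131 CPM and at 1193, 1085 and 979.9 CPM, and Zim1, a zinc finger gene, at 280, 238 and 235 CPM and at 278, 305 and 205 CPM. Usp29, encoding a deubiquitinase, was at 19.1 ± 1.48 and 17.9 ± 2.55 CPM, and the adjusted p of the 3 genes ran from 0.713 to 0.852.

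Among loci with 1 member, the groups did not overlap for Grb10, Gnas and Nap1l5, all with RARdn higher and none called. Grb10, an adaptor that inhibits insulin and IGF1 receptor signalling, was at 699, 709 and 716 CPM in the 3 controls and 905, 780.1 and 799 CPM in RARdn libraries (log2 0.23, edgeR adjusted p = 0.402). Gnas, encoding the stimulatory G protein alpha subunit with an imprint that depends on promoter and tissue, was at 204, 197 and 202 CPM and at 267, 229.97 and 235 CPM (log2 0.28, adjusted p = 0.208). Nap1l5, a retrogene inside an intron of Herc3, was at 1.122, 0.757 and 1.25 CPM and at 2.91, 2.84 and 1.55 CPM (log2 1.23, SE 0.34, adjusted p = 0.0802). Its fold change was the highest of the 37, at counts of 34 to 170 per library.

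Nnat, which is expressed in beta cells, was at 232, 226 and 189 CPM in the 3 controls and 381, 191 and 194 CPM in RARdn libraries (edgeR adjusted p = 0.627). RARdn 1 alone stood out, and the pan-endocrine list was also highest in that library, at 1716 CPM against 1213 to 1335 CPM in the 3 controls and 1439 and 1411 CPM in RARdn 2 and 3. That list had 11 of 15 genes above 0 and 1 called, the synaptic gene Pclo, which fell (log2 -1.67, edgeR adjusted p = 0.00138). The beta cell gene Ins2 was below every control in RARdn 1, 2 and 3 (776, 636 and 594 against 1049 to 1388 CPM), and RARdn 1 was the highest of these. The part of endocrine cells in the Nnat values was not tested. Plagl1 was at 577 ± 41.3 and 550.5 ± 105.6 CPM and Slc38a4, an amino acid transporter gene, at 98.7 ± 5.55 and 105.8 ± 8.18 CPM. Impact, a regulator of translation under amino acid stress, was at 23.6 ± 2.15 and 23.0 ± 6.30 CPM, and Zrsr1, a splicing factor retrogene inside Commd1, at 9.33 ± 1.28 and 10.7 ± 0.685 CPM. The adjusted p of these 4 genes ran from 0.485 to 0.947.

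Coding and noncoding members were each set beside all genes of their class, and no difference between the 2 was tested. Of the 31 coding genes, 3 rose and none fell, 20 had a log2 fold change above 0, and the median was 0.11, against 0.03 over 15048 protein-coding genes tested. Of those 15048 genes 1.58% were called higher and 1.10% lower. For 11 of the 31 coding members (35.5%) every RARdn library was above every control, where this held for 15.9% of all protein-coding genes. Of the 6 noncoding RNAs, 1 fell and none rose, 3 lay above 0 and 3 below on the log2 scale, and the median was -0.21, against -0.24 over 1643 long noncoding genes tested. Of those 1643 genes 0.183% were called higher and 5.66% lower. For 3 of the 6 noncoding members (50%, Kcnq1ot1, H19 and Airn) every RARdn library was lower, where this held for 22.5% of all long noncoding genes. Genes of the GENCODE class TEC, unverified and mostly unspliced transcripts, had a median of -1.20 and 195 of 600 were called lower. The log2 fold change was below 0 for 1094 of the 1643 long noncoding genes and for 526 of the 600 TEC genes.

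**Figure D3:**
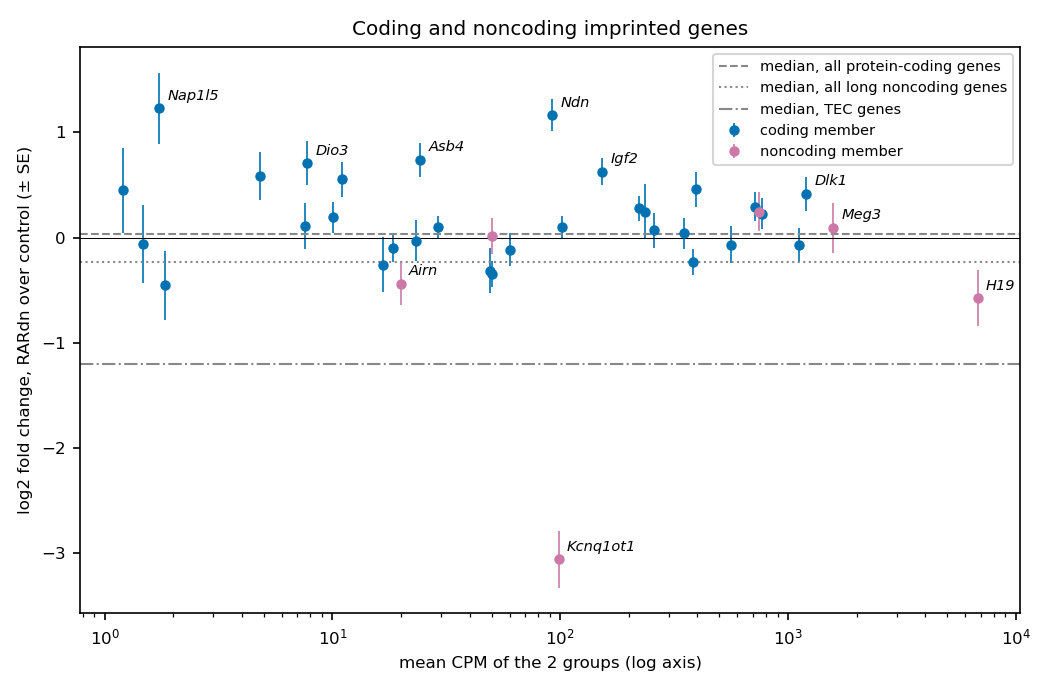
Each point is an imprinted gene at its mean CPM over the group means (log axis) and its log2 fold change of RARdn over control, with bars of ± SE; horizontal lines are medians over all protein-coding, long noncoding and TEC genes tested. Kcnq1ot1 lies below every line, at -3.06, while H19 and Airn lie between the medians of the long noncoding (-0.24) and TEC genes (-1.20).

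As a share of the counts of all 37 genes, noncoding RNAs took 60.7%, 61.8% and 63.9% in controls and 50.5%, 50.3% and 56.1% in RARdn libraries. The groups did not overlap, and H19 made up most of this share. By the allele that is usually expressed, 2 of 22 paternally expressed genes rose (Igf2 and Ndn) and 1 fell (Kcnq1ot1), with a median log2 fold change of 0.15. Of 14 maternally expressed genes 1 rose (Asb4) and none fell, with a median of 0.03. Over all genes tested 1.37% were called higher and 2.65% lower, with a median of 0.00051. No difference between these classes was tested.

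Ratios of counts within a library do not depend on scaling. H19 per Igf2 count was 63.4, 68.5 and 72.1 in controls and 26.9, 21.7 and 42.7 in RARdn libraries (log2 difference -1.22). Because Igf2 shares most of its exon bases with Gm49394, the size of this ratio may differ from that of the transcripts. Kcnq1ot1 per Kcnq1 count was 3.55, 3.44 and 2.76 in controls and 0.687, 0.779 and 0.198 in RARdn libraries, and per Cdkn1c count 0.475, 0.562 and 0.492 against 0.0614, 0.0740 and 0.0390. Copg2 per Mest was 0.0870 ± 0.00561 and 0.0562 ± 0.0115, and Rian per Meg3 0.449 ± 0.0173 and 0.507 ± 0.0554. These 5 ratios did not overlap between groups (2-sided exact permutation p = 0.1, the smallest that 3 against 3 allows, and 0.22 after adjustment over the 11 ratios). The other ratios overlapped, with exact p from 0.2 to 0.9. Meg3 per Dlk1 was 1.48, 1.49 and 1.47 in controls and spread to 1.14, 1.53 and 0.874 in RARdn libraries, and Mirg per Meg3 was 0.0327 ± 0.00162 and 0.0313 ± 0.00169.

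**Figure D4:**
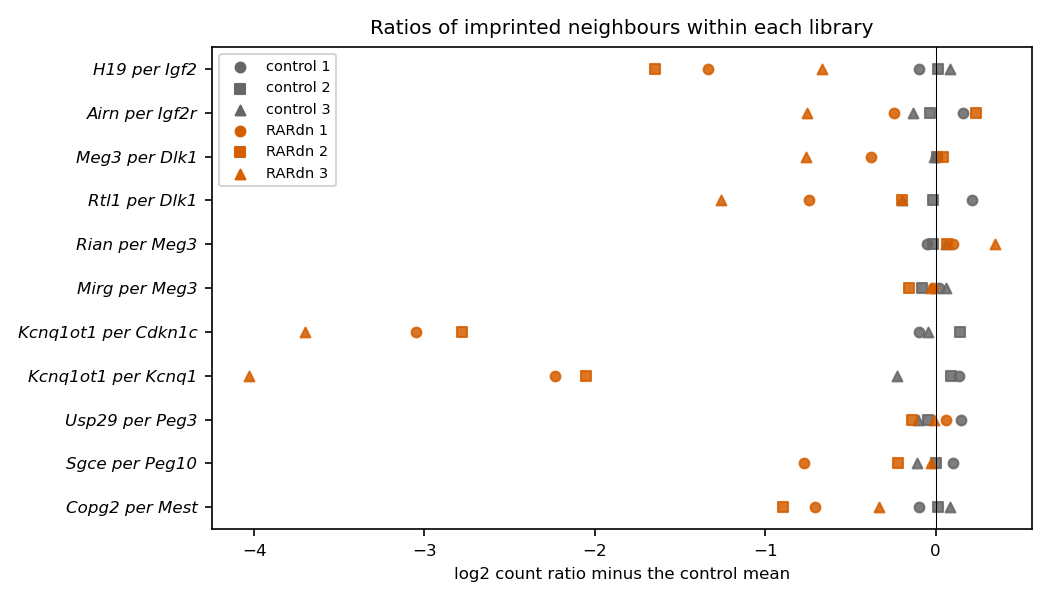
Each row is a ratio of counts of neighbouring imprinted genes, and each point a library on the horizontal axis of log2 ratio minus the mean of the controls. Both Kcnq1ot1 ratios and H19 per Igf2 lie to the left of all controls in the 3 RARdn libraries, whereas Mirg per Meg3 and Usp29 per Peg3 stay close to 0.

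Some cell type lists moved with genotype beside these genes. The mesenchyme list, cells in which many imprinted genes are strongly expressed, summed to 7624, 5642 and 6425 CPM in the 3 controls and 9214, 10347 and 9508 CPM in RARdn libraries, without overlap. The collagen genes Col1a1, Col1a2 and Col3a1 made up most of that sum in every library. Of the 15 genes of the list 1 rose (Lum, a proteoglycan gene of fibroblasts, log2 1.07, edgeR adjusted p = 0.0128), and the median was 0.40. The log2 fold change was above 0 for 12 and below 0 for 3, Nkx3-2 (-0.13), Barx1 (-0.52) and Col6a3 (-0.01). Smooth muscle genes had a median of 1.17, and 2 of 5 rose, the actin gene Acta2 (edgeR adjusted p = 0.0431) and the calponin gene Cnn1 (0.0271). Of the neural and Schwann list 1 of 7 fell, the receptor gene Ret (139 to 61.2 CPM on average, edgeR adjusted p = 0.0202). The other 6, among them the Schwann cell factor gene Sox10 (log2 0.76, adjusted p = 0.129) and the neuronal tubulin gene Tubb3 (0.997, adjusted p = 0.334), all had a log2 fold change above 0 without being called. The median of the 7 was 0.997, every RARdn library was higher for 4, and 5 reached an unadjusted p below 0.05 and as many were called by DESeq2. Of the immune list 1 of 6 rose, the macrophage receptor gene Csf1r (30.7 to 53.9 CPM, log2 0.81, adjusted p = 0.0454), with 5 of 6 above 0, a median of 0.51 and 3 called by DESeq2. Endothelial genes, of which Cdh5 (167 and 167 CPM) and Pecam1 (132 and 132 CPM) were the most abundant, had a median of 0.03 and none of 6 was called, with 1 at an unadjusted p under 0.05 and 0 by DESeq2. Scaling to the mesenchyme list shifted the median of all genes by -0.58 and ended the calls of Igf2 (log2 0.05, adjusted p = 0.857) and Asb4 (0.18, adjusted p = 0.467) but not those of Ndn (0.60, adjusted p = 0.0194) and Kcnq1ot1 (-3.65, adjusted p = 1.17e-11). EdgeR also called no gene of the acinar, duct, erythroid, mesothelium and proliferation lists, in which 0, 2, 1, 1 and 2 genes stood below 0.05 before adjustment and 0, 1, 1, 1 and 2 were called by DESeq2. The part of cell composition in the changes of Igf2, Asb4 and Ndn was not tested.

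Genes that place, keep or remove DNA methylation and imprints were also read. Of 17 such genes tested, edgeR called none (2 at an unadjusted p under 0.05, and 1 by DESeq2), with a median log2 fold change of -0.08. Those 2 were Smchd1 (log2 -0.39, edgeR adjusted p = 0.110) and Tet2 (log2 -0.47, adjusted p = 0.0979). Of the 17, 7 lay above 0 and 10 below. Trim28, the corepressor recruited by ZFP57, was at 243 ± 10.8 and 256 ± 32.4 CPM (adjusted p = 0.789), and Ehmt2, a histone H3 lysine methyltransferase gene, at 174 ± 2.21 and 189 ± 2.96 CPM (adjusted p = 0.528). In the IGF signalling list edgeR called none of 15 (6 at an unadjusted p under 0.05, and 5 by DESeq2). The most abundant over all 6 libraries were Igfbp5 (290.2 ± 77.0 and 496 ± 54.5 CPM) and Igfbp4 (289 ± 48.3 and 441 ± 43.0 CPM), which encode IGF-binding proteins, with edgeR adjusted p = 0.0709 and 0.0756. In controls alone the growth factor gene Igf1 was the highest (297 CPM, and 275 CPM in RARdn libraries, adjusted p = 0.659). Of 36 further genes reported as imprinted in some mouse tissue, 1 rose and 1 fell, with a median of 0.17. These were Tfpi2, a protease inhibitor gene (1.13 ± 0.138 and 2.52 ± 0.446 CPM, log2 1.15, edgeR adjusted p = 0.0475), and the insulin gene Ins2, which is imprinted in the yolk sac (log2 -0.85, adjusted p = 0.0431).

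RefSeq listed 47 promoters for 30 of the 37 genes, each of 300 bases from 250 before to 50 after the start. They held a median of 12 CpG dinucleotides, against 7 over 32851 promoters of all genes. TGCCGC, the core of the site bound by ZFP57, was found on either strand in 11 of the 47 (23.4%) and in 11.6% of all promoters. AGGTCA, the half-site of nuclear receptors, was found in 4 (8.51%) and in 16.3% of all promoters, in promoters of Igf2, Igf2r, Airn and Meg3. DR5, the spaced direct repeat of that half-site and a classical retinoic acid response element, was found in none of the 47 and in 3 of all promoters. These matches describe the letters of the windows only, and none of the promoters printed above holds TGCCGC or AGGTCA.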

How the data were processed

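The deposited values are raw read counts per gene symbol, 1 table per sample. Per the submitters' processing notes the authors used FastQC, cutadapt, HISAT2, HTSeq, bedtools and DESeq2 with builds mm10 and GRCm38. Versions, annotation and strand setting: not given in the sources used here. The 5 summary lines were left out of library sizes and tests; reads outside genes were 2.90% to 8.99% and reads in more than 1 gene 4.87% to 5.49% of reads. The quasi-likelihood test came from edgeR 4.0.16 under R 4.3.3 (filterByExpr, TMM, glmQLFit and glmQLFTest, genotype as the only term, 2-sided), adjusted over 19070 genes and called at an adjusted p under 0.05. SE was taken as |log2 fold change| divided by the root of F. limma 3.58.1 and DESeq2 1.42.0 served as alternatives. Gene positions and exon bases are from GENCODE M21, which names 54183 of the symbols, and promoters from RefSeq (GRCm38.p6). Library values were plotted as log2(CPM + 0.1). The test was tested on simulated data.

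The members and lists were chosen with earlier results of these data known. All members are accounted for; those called or without overlap and the most abundant of each cluster are given per library. Of the imprint control, IGF and further imprinted gene lists up to 4 called genes are named, filled up to 2 with the most abundant over all libraries. Smchd1 and Tet2 are named in addition, for an unadjusted p under 0.05. Of cell type lists called genes are named where a list is discussed, and other genes of them were chosen after their values were seen. Nothing in the labels ties embryos to litters or batches; p-values thus reflect spread among these samples, in part perhaps technical. No libraries of a group looked like duplicates: chi-square per degree of freedom was at least 15.3.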

Additional observations from a re-analysis of the deposited data

How the results depend on the processing

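Counts of calls depended on the settings. Genes called higher and lower numbered 262 and 505 as reported, 1026 and 1276 by DESeq2, 1123 and 1223 without a filter, 77 and 140 with at least 1 CPM in 3 libraries, 5 and 56 with the Xist term, 125 and 349 with library totals only, and 243 and 8977 with scaling to the mesenchyme list. Leaving out 1 library gave 22 to 1404 higher (22 without RARdn 2, 28 and 29 without control 3 and 2, 125 without control 1, 1404 without RARdn 3) and 71 to 1576 lower (71 without control 2, 108 without RARdn 2, 218 and 269 without control 1 and 3, 1576 without RARdn 3). Imprinted genes called higher numbered 3 as reported, 8 by DESeq2, 6 without a filter and 1 with at least 1 CPM in 3 libraries. They numbered 1 with library totals only, 1 with mesenchyme scaling, and 0 to 6 with 1 library left out (6 without RARdn 3, 1 without RARdn 2 or control 3, 0 without control 2). Those called lower numbered 1 as reported, 2 by DESeq2, 15 with mesenchyme scaling, and 1 to 4 with 1 library left out (4 without RARdn 3).

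Mirg and Sgce turned to called decreases with mesenchyme scaling (log2 -0.56 and -0.47, where the median of all genes was -0.58). Usp29 per Peg3 (log2 difference -0.03) ranged from -0.082 to 0.0444 with 1 library left out and was 0.0263 without RARdn 2. Over the 37 genes and 18 alternatives, 616 values stayed on the same side of the threshold (an uncalled value that changed sign counts among these), 28 gained and 20 lost a call, and 2 reversed. The cause was not tested. Deviations of same-numbered samples from their group means correlated weakly (r = 0.0129, -0.0135 and 0.126 for numbers 1, 2 and 3). The r of number 3 was the highest of all pairs, while control 1 correlated best with RARdn 2 (0.0920). With 3 samples per group these values cannot decide whether the numbers pair the samples. With a replicate block, 321 genes were called higher and 496 lower, and 2 imprinted genes higher and 1 lower (Igf2 adjusted p = 0.0506). With the smallest levels near 1 CPM, differences in Phlda2, Mkrn3, Ascl2 and Nap1l5 rest on few counts.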

Other observations

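Of the 20 coding members with a log2 fold change above 0, 6 have a single exon and 14 have more. GENCODE gives a single exon to 7 coding members (Dio3, Mkrn3, Peg12, Ndn, Magel2, Nap1l5 and Zrsr1), a grouping chosen after their values were seen and therefore given without a test. Their median log2 fold change was 0.59, with 6 of 7 above 0 and 1 called. For 4 of the 7 (57.1%) every RARdn library was above every control, where this held for 19.8% of all single-exon protein-coding genes tested. The 24 coding members with more exons had a median of 0.08, with 14 above 0. Over 474 protein-coding genes with a single exon the median was 0.09, with 2.32% called higher.

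Among the 37 genes RARdn 3 was the lowest of the 6 libraries for 12 and RARdn 1 the highest for 14, or 32.4% and 37.8%. Over all genes tested these shares were 23.0% and 22.3%. Igf2os, the antisense partner of Igf2, was at 6.86, 5.12 and 6.14 CPM in the control libraries, and 10.4, 6.92 and 5.76 CPM were found in RARdn 1, 2 and 3 (edgeR adjusted p = 0.415).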
